A study of Mus musculus with 12 samples.

Results

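The signal recognition particle is a complex of proteins and a small non-coding RNA in the cytosol, and its receptor sits on the membrane of the endoplasmic reticulum. The 9 genes Srp9, Srp14, Srp19, Srp54a, Srp54b, Srp68, Srp72, Srpr and Srprb encode protein subunits of the particle and both subunits of the receptor. They were chosen by symbol, as every array probe whose platform annotation carried 1 of these symbols, and 17 such probes were found among 39429 gene probes. All 17 passed the filter on low intensity, so that the 9 genes stand among 21643 named genes that were measured. Transcript levels were compared in 12 mice at day 14 after birth, with 4 CSS1 mice (numbered 3, 6, 9 and 12), 4 CSS2 mice (1, 4, 7 and 10) and 4 Bl6 mice (C57BL/6J; 2, 5, 8 and 11). CSS1 and CSS2 are read from their names as chromosome substitution strains, mice that carry chromosome 1 or chromosome 2 of another strain on a Bl6 background. The labels used here do not give the donor strain. No treatment was labelled, and the RNA of each mouse was hybridised with RNA of a Bl6 pool on a 2-colour array, with the mouse in Cy5 on 2 arrays of each strain and in Cy3 on the other 2. The sample labels give the tissue as hippocampus, whereas the series text speaks of brains. The series title names Srp9 as a candidate gene for susceptibility to febrile seizures, convulsions that accompany fever.

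The particle binds the signal sequence of a secretory or membrane protein as it leaves the ribosome, slows its translation, and hands the ribosome to the receptor, which passes it to the translocon, the protein-conducting channel of the endoplasmic reticulum. In the Alu domain of the particle, Srp9 and Srp14 form a heterodimer that slows elongation. In the S domain, Srp54 binds the signal sequence and GTP, Srp19 helps to load Srp54 onto the RNA, and Srp68 and Srp72 form a second heterodimer. Srpr is the receptor subunit that meets Srp54, and Srprb anchors it in the membrane. All cells that make secreted or membrane proteins, neurons and glia included, use this machinery, and none of its genes marks a single brain cell type.

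The mouse genome holds neighbouring copies of Srp54, and the sequences of their start regions are shown because Srp54a and Srp54b, both measured here, belong to these copies. In the RefSeq table for GRCm38.p6, windows of 300 bases around the starts of Srp54a, Srp54b and Srp54c lie on the plus strand of chromosome 12, at chr12:55080246-55080545, chr12:55154854-55155153 and chr12:55230127-55230426. Srp54a and Srp54c share an unbroken run of 153 bases, in capitals in their sequences. Within the windows, Srp54b and Srp54c share 91 bases, in capitals in the sequence of Srp54b.
Srp54a: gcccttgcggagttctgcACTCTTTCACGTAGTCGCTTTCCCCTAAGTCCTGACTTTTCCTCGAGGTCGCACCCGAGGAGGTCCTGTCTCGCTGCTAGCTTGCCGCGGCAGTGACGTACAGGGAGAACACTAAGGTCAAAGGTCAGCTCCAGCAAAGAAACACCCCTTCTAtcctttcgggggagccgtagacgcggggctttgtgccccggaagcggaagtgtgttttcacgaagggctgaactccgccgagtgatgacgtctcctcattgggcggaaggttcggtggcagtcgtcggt
Srp54b: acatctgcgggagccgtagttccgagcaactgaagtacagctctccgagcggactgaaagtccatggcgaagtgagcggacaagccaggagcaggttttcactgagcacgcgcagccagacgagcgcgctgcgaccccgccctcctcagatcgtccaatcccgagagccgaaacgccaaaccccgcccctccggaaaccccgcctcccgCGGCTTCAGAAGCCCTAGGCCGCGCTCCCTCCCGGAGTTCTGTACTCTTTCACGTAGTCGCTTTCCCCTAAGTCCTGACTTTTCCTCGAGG
Srp54c: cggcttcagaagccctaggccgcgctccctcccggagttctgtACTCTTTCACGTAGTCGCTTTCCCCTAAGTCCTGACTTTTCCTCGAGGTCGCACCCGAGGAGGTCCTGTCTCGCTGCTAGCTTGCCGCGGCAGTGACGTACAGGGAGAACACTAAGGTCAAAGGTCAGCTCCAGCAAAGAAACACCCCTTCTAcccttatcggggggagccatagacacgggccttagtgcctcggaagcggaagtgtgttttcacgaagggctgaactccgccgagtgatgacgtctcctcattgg
The run that Srp54a and Srp54c share lies before the annotated start of Srp54a, and the run that Srp54b and Srp54c share crosses that of Srp54b. No probe was placed against these runs, so that they do not tell which transcript a probe measures. The windows begin 74608 and 75273 bases apart, and the longest run that Srp54a and Srp54b share within them is 48 bases. Both runs that involve Srp54b reach the end of its window. Their lengths are therefore cut by the window and cannot be set against the 153 bases of Srp54a and Srp54c. No probe carried the symbol Srp54c. The probe sequences were not used here, and which of the copies each Srp54a and Srp54b probe measures was not tested.

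The other members lie apart from each other in GRCm38.p6. Srp9 is annotated on chromosome 1 from 182124737 to 182132415, inside the chromosome after which CSS1 is named. Srp14 is annotated on chromosome 2 from 118475843 to 118479696, inside the chromosome after which CSS2 is named. Srp68 lies on chromosome 11, Srp72 on chromosome 5, Srp19 on chromosome 18, and the receptor genes Srpr and Srprb both on chromosome 9. Where a gene had several probes they were numbered by brightness, probe 1 being the brightest. No level of a probe was set against that of another, because hybridisation strength differs between probes.

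Each array carried 39429 gene probes, with a median signal in the mouse's channel between 188 and 408 intensity units over a median local background of 36 to 42. On the arrays, 89.6% to 99.9% of gene probes were above background, with the lowest share on the array of CSS2 mouse 1. The number of arrays, 4 a strain, limits the precision. Each value is the log2 ratio of a mouse over the Bl6 pool, with the fitted dye effect removed, and the median SD between mice of a strain was 0.0633 over all kept probes. A probe was called where limma's moderated test, adjusted by the Benjamini-Hochberg method over all 39239 kept probes, gave a p under 0.05. The labels call the mice individual, so that the p-values measure the spread between mice.

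Among the 17 probes, 1 was called in CSS1 against Bl6, 0 in CSS2 against Bl6 and 1 in CSS1 against CSS2, and both calls were the same probe of Srp9, lower in CSS1. Over all kept probes the called share was 1.73% in CSS1 against Bl6, 0.905% in CSS2 against Bl6 and 0.917% in CSS1 against CSS2, and the share called lower was 0.826% in CSS1 against Bl6 and 0.53% in CSS1 against CSS2. A single call among 17 probes is too few to set against these shares. At an unadjusted p under 0.05 there were 2 member probes in each of the 3 comparisons, where 11.1%, 9.16% and 8.14% of all kept probes passed. The median log2 difference of the 17 probes was -0.01 in CSS1 against Bl6, with a range of -0.41 to 0.09, 0.04 in CSS2 against Bl6, with a range of -0.06 to 0.26, and -0.05 in CSS1 against CSS2, with a range of -0.45 to 0.06. Over all kept probes these medians were -0.003, 0 and -0.001. Both comparisons with Bl6 share the same 4 Bl6 mice.

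**Figure D1:**
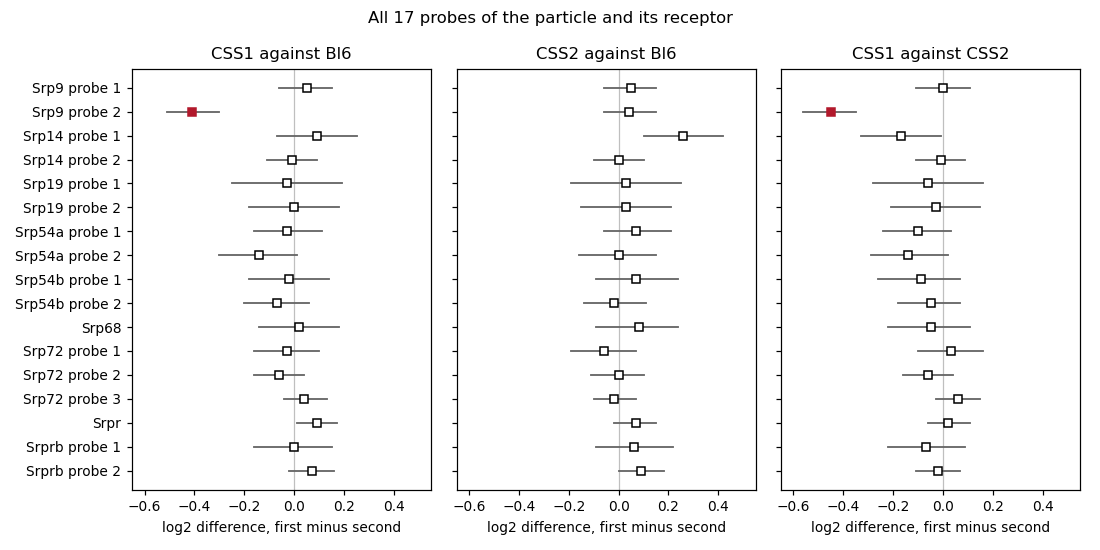
Log2 difference between strains (x axis) for each of the 17 probes (y axis), with 95% intervals, for the 3 comparisons, filled red where the adjusted p was under 0.05. Probe 2 of Srp9 lies at -0.41 in CSS1 against Bl6 and -0.45 in CSS1 against CSS2, and probe 1 of Srp14 at 0.26 in CSS2 against Bl6.

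Srp9, the smaller subunit of the Alu domain heterodimer, was measured by a pair of probes that gave different results. The hybridisation ratio at probe 2 (MMAC028812) was lower in all 4 CSS1 mice, at 0.754 times that of Bl6. Probe 1 (MMAC009332) did not differ detectably between the strains. Probe 2 gave -0.32, -0.34, -0.37 and -0.50 in CSS1 mice 3, 6, 9 and 12. It gave 0.10, 0.04, 0.06 and 0.07 in CSS2 mice 1, 4, 7 and 10. In Bl6 mice 2, 5, 8 and 11 it gave 0.01, 0.13, -0.05 and 0.02. The highest CSS1 mouse therefore lay below the lowest mouse of either other strain, and the CSS2 mice lay within the range of the Bl6 mice.

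Srp9 probe 2 averaged -0.38 ± 0.08 over the CSS1 mice, 0.07 ± 0.02 over the CSS2 mice and 0.03 ± 0.08 over the Bl6 mice (SD, n = 4 a strain). CSS1 was lower than Bl6 by a log2 difference of -0.41 ± 0.05 (SE; 95% interval -0.51 to -0.30; limma adjusted p = 0.00196). CSS1 was lower than CSS2 by a log2 difference of -0.45 ± 0.05 (95% interval -0.56 to -0.35; limma adjusted p = 0.000474). CSS2 minus Bl6 was 0.04 (95% interval -0.06 to 0.15; limma adjusted p = 0.89). Within the arrays with the mouse in Cy5, CSS1 minus Bl6 was -0.49, and within those with the mouse in Cy3 it was -0.32. CSS1 minus CSS2 was -0.48 within Cy5 and -0.43 within Cy3. Of all kept probes, 0.892% had a larger difference in size in CSS1 against Bl6. With each array centred on its median in place of loess, the difference of Srp9 probe 2 between CSS1 and Bl6 was -0.39 with a limma adjusted p of 0.0666, which ends that call.

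The signal of Srp9 probe 2 in the mouse's own channel ran the same way. It was 1640, 1585, 1578 and 1382 intensity units in CSS1 mice 3, 6, 9 and 12, against 2207, 2128, 2194 and 2149 in CSS2 mice 1, 4, 7 and 10, and 2058, 2195, 1884 and 1886 in Bl6 mice 2, 5, 8 and 11. No CSS1 mouse reached the lowest value of the other strains in this channel either. In the authors' deposited log2 values the CSS1 mice stood at -0.32, -0.35, -0.39 and -0.49, the CSS2 mice at 0.11, 0.04, 0.06 and 0.07, and the Bl6 mice at 0.01, 0.13, -0.06 and 0.01.

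**Figure D2:**
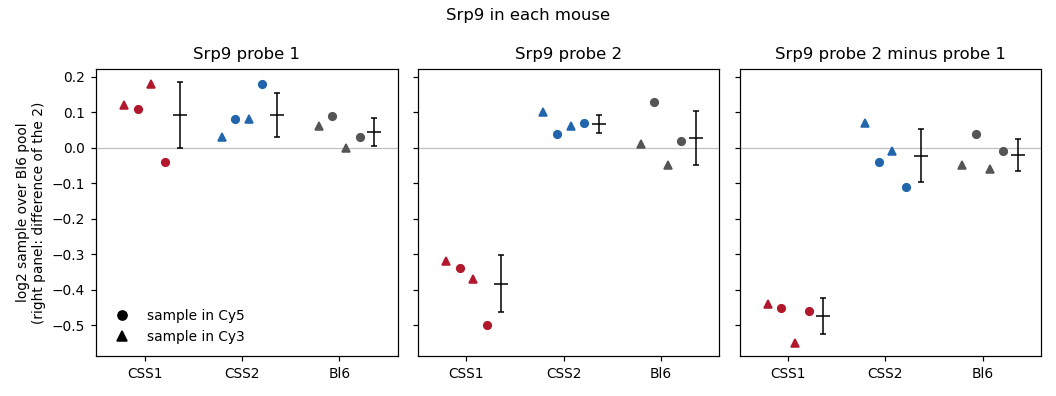
Log2 ratio over the Bl6 pool, dye effect removed (y axis), of both Srp9 probes and of their difference in each mouse, by strain (x axis), with the mean and SD of each strain (n = 4), circles for mice in Cy5 and triangles for mice in Cy3. At probe 2 the CSS1 mice lie between -0.50 and -0.32 and the other 8 mice between -0.05 and 0.13, while at probe 1 the 3 strains overlap.

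Srp9 probe 1 gave 0.12, 0.11, 0.18 and -0.04 in CSS1 mice 3, 6, 9 and 12. It gave 0.03, 0.08, 0.08 and 0.18 in CSS2 mice 1, 4, 7 and 10, and 0.06, 0.09, 0.00 and 0.03 in Bl6 mice 2, 5, 8 and 11. The strains overlapped fully at this probe, and CSS1 mouse 12 was the lowest of all 12 mice. Strain means were 0.09 ± 0.09 for CSS1, 0.09 ± 0.06 for CSS2 and 0.05 ± 0.04 for Bl6 mice (SD, n = 4 a strain). CSS1 minus Bl6 was 0.05 ± 0.05 (SE; 95% interval -0.06 to 0.15; limma adjusted p = 0.869), so that a fall of the size seen at probe 2 lies outside the interval of probe 1. CSS2 minus Bl6 was 0.05 (95% interval -0.06 to 0.15; limma adjusted p = 0.887), and CSS1 minus CSS2 was 0.00 (95% interval -0.11 to 0.11). Within Cy5, CSS1 minus Bl6 was -0.02, and within Cy3 it was 0.11.

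The Srp9 probes were also set against each other within each mouse, a description chosen after the values were seen and given with no test. Probe 2 minus probe 1 was -0.44, -0.45, -0.55 and -0.46 in the CSS1 mice, 0.07, -0.04, -0.01 and -0.11 in the CSS2 mice, and -0.05, 0.04, -0.06 and -0.01 in the Bl6 mice. It averaged -0.47 ± 0.05 over the CSS1 mice, -0.02 ± 0.07 over the CSS2 mice and -0.02 ± 0.04 over the Bl6 mice (SD, n = 4 a strain). CSS1 minus Bl6 was -0.45 and CSS1 minus CSS2 was -0.45. Leaving out any single mouse kept the CSS1 minus Bl6 difference between -0.47 and -0.43. Both probes read the same RNA of each mouse. The sequences of the probes and their places in the Srp9 transcript were not used here, and neither were those of the donor of chromosome 1. A ratio of a probe is one of hybridisation, so that 0.754 at probe 2 stands for a transcript level only if CSS1 and Bl6 have the same bases under that probe, which was not tested. The mean of both probes, also taken after the values were seen, gave -0.18 in CSS1 against Bl6 and -0.23 in CSS1 against CSS2.

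Other genes with several probes also held called and uncalled probes side by side, a count of calls that tests no difference between probes. On chromosome 1, 454 genes had at least 2 kept probes, 61 of these had a called probe in CSS1 against Bl6, and 49 of the 61, or 80.3%, also had a probe that was not called. On the other chromosomes the same held for 193 of 216 genes, or 89.4%. These counts include genes with more probes than Srp9. Among genes with exactly 2 kept probes and a called probe, only 1 probe was called in 31 of 43 on chromosome 1. On the other chromosomes this held for 114 of 136. Chromosome 1 held 1813 kept probes, of which 77 were called lower in CSS1 (4.25%) and 62 higher (3.42%). Srp9 probe 2 is 1 of those 77.

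**Figure D3:**
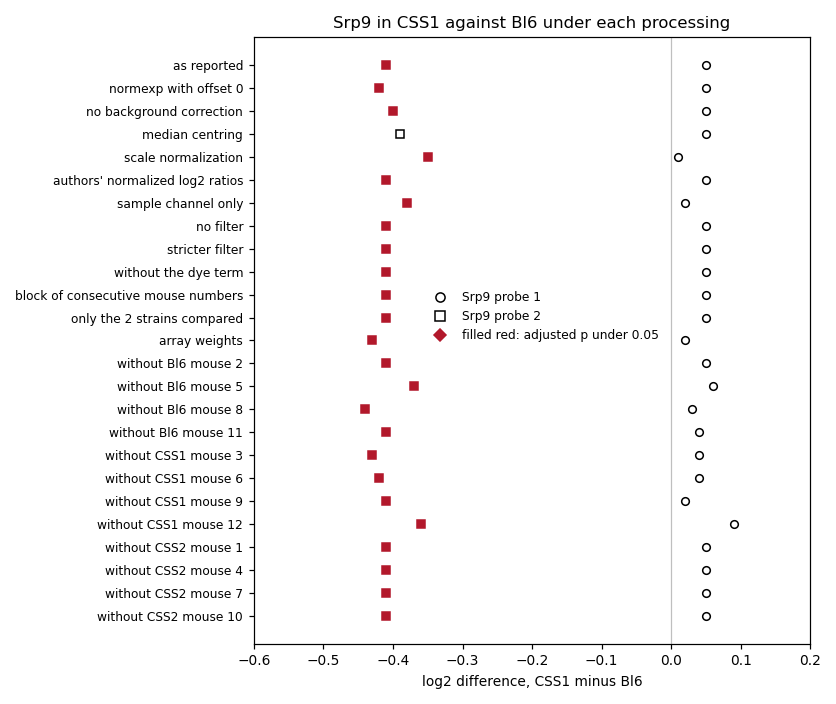
Log2 difference CSS1 minus Bl6 (x axis) of Srp9 probe 1 (circles) and probe 2 (squares) as reported, under each alternative treatment of the arrays and without each mouse (y axis), filled red where the adjusted p was under 0.05. Probe 2 stays between -0.44 and -0.35 and loses its call with median centring, and probe 1 is never called.

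Srp14, the partner of Srp9 in the Alu domain, had the largest positive difference of any member, in CSS2, though it did not pass the test. Srp14 probe 1 (MMAC000202) gave 0.28, 0.42, 0.12 and 0.29 in CSS2 mice 1, 4, 7 and 10, and 0.15, 0.05, 0.10 and 0.13 in CSS1 mice 3, 6, 9 and 12. It gave -0.03, 0.05, 0.19 and -0.14 in Bl6 mice 2, 5, 8 and 11. CSS2 mice 1, 4 and 10 lay above every Bl6 mouse, and CSS2 mouse 7 lay below Bl6 mouse 8. It averaged 0.28 ± 0.12 for CSS2, 0.11 ± 0.05 for CSS1 and 0.02 ± 0.14 for Bl6 mice (SD, n = 4 a strain). CSS2 minus Bl6 was 0.26 ± 0.07 (SE; 95% interval 0.10 to 0.42; unadjusted p = 0.00443, limma adjusted p = 0.185), a ratio of 1.2. It was 0.40 within Cy5 and 0.12 within Cy3.

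In CSS1 the difference of Srp14 probe 1 from Bl6 was 0.09 (95% interval -0.07 to 0.25; limma adjusted p = 0.787), and CSS1 minus CSS2 was -0.17 (95% interval -0.33 to -0.01; limma adjusted p = 0.568). When the signal of the mouse's channel was used without the pool, Srp14 probe 1 was called higher in CSS2 than in Bl6, by 0.23 (limma adjusted p = 0.013). Under that setting 3013 of all probes were called in this comparison. The intensities behind it ran from 8847 to 9573 in CSS2 mice, 8080 to 8452 in CSS1 mice and 7359 to 8657 in Bl6 mice. Srp14 probe 2 (MMAC013576) was dim, at 115 to 126 intensity units in all 12 mice, and its difference was 0.00 in CSS2 against Bl6 (95% interval -0.10 to 0.10) and -0.01 in CSS1 against Bl6. On chromosome 2, 125 of 2873 kept probes were called in CSS2 against Bl6 (4.35%), and neither Srp14 probe was among them.

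The S domain gave no call. Srp19, which helps to assemble Srp54 onto the RNA, varied most between mice of the same strain, with SDs of 0.17 in CSS1, 0.15 in CSS2 and 0.14 in Bl6 at probe 1. Its probes moved together across mice. Srp19 probe 1 gave 0.20 in CSS1 mouse 9 and -0.21 in CSS1 mouse 12, and probe 2 gave 0.19 and -0.18 in the same mice. Mouse 9 was in Cy3 and mouse 12 in Cy5. CSS1 minus Bl6 was -0.03 at Srp19 probe 1 (95% interval -0.25 to 0.19) and 0.00 at probe 2 (95% interval -0.18 to 0.18), with limma adjusted p-values of 0.98 and 0.998. These are averages of opposite signs in the dyes. Within Cy5, CSS1 minus Bl6 was -0.23 at probe 1 and -0.17 at probe 2, and within Cy3 it was 0.18 and 0.17. CSS2 minus Bl6 was 0.03 at both probes. With these intervals, a difference the size of that at Srp9 probe 2 would lie outside what Srp19 allows, and differences within the intervals were not detectable.

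Srp54, the subunit that binds the signal sequence, was read by probes annotated to Srp54a and Srp54b. The lowest values stood at Srp54a probe 2 in CSS1, with -0.01, -0.26, 0.03 and -0.11 in CSS1 mice 3, 6, 9 and 12, against 0.00, 0.01, -0.02 and 0.23 in CSS2 mice 1, 4, 7 and 10, and -0.01, 0.08, 0.05 and 0.10 in Bl6 mice 2, 5, 8 and 11. The strains overlapped, and CSS1 mice 6 and 12, both labelled with Cy5, were the lowest. CSS1 minus Bl6 was -0.14 ± 0.07 (SE; 95% interval -0.30 to 0.01; limma adjusted p = 0.521), and it was -0.27 within Cy5 and -0.01 within Cy3. CSS1 minus CSS2 was -0.14 (limma adjusted p = 0.687). With the sample channel only, Srp54a probe 2 was called lower in CSS1 than in CSS2, by a log2 difference of -0.20 (limma adjusted p = 0.0463).

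Srp54a probe 1 differed from Bl6 by -0.03 in CSS1 and 0.07 in CSS2, and Srp54b probe 1 by -0.02 and 0.07. For Srp54a probe 1, CSS1 minus Bl6 had opposite signs in the dyes, -0.17 within Cy5 and 0.11 within Cy3. At Srp54b probe 1 the channel of the mouse alone gave another picture than the ratio. Its intensity was 1210, 1338, 1088 and 1393 in CSS2 mice 1, 4, 7 and 10, below the 1406 to 1589 of the Bl6 mice, while the log2 ratio to the pool averaged 0.02 in CSS2 and -0.05 in Bl6. The difference in the ratio, CSS2 minus Bl6, was 0.20 within Cy5 and -0.05 within Cy3, with a limma adjusted p of 0.877. Srp54b probe 2 was dim, at 125 to 159 intensity units, and differed from Bl6 by -0.07 in CSS1 and -0.02 in CSS2.

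Srp68 and Srp72, the heterodimer of the S domain, also stayed without a call. The single Srp68 probe gave 0.07, -0.10, 0.22 and 0.00 in CSS1 mice, 0.10, 0.10, 0.04 and 0.18 in CSS2 mice and 0.05, 0.01, -0.12 and 0.18 in Bl6 mice, in the order of their numbers. Its difference from Bl6 was 0.02 in CSS1 (95% interval -0.14 to 0.18) and 0.08 in CSS2 (95% interval -0.09 to 0.24). Within Cy5, CSS1 minus Bl6 was -0.14 at Srp68, and within Cy3 it was 0.18. The 3 probes of Srp72 differed from Bl6 by -0.03, -0.06 and 0.04 in CSS1 and by -0.06, 0.00 and -0.02 in CSS2. Their strains overlapped in each of these comparisons. Srp72 probe 2 was called lower in CSS1 than in CSS2 with the sample channel only, at -0.30 (limma adjusted p = 0.00519), against -0.06 in the ratio to the pool (limma adjusted p = 0.853).

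**Figure D4:**
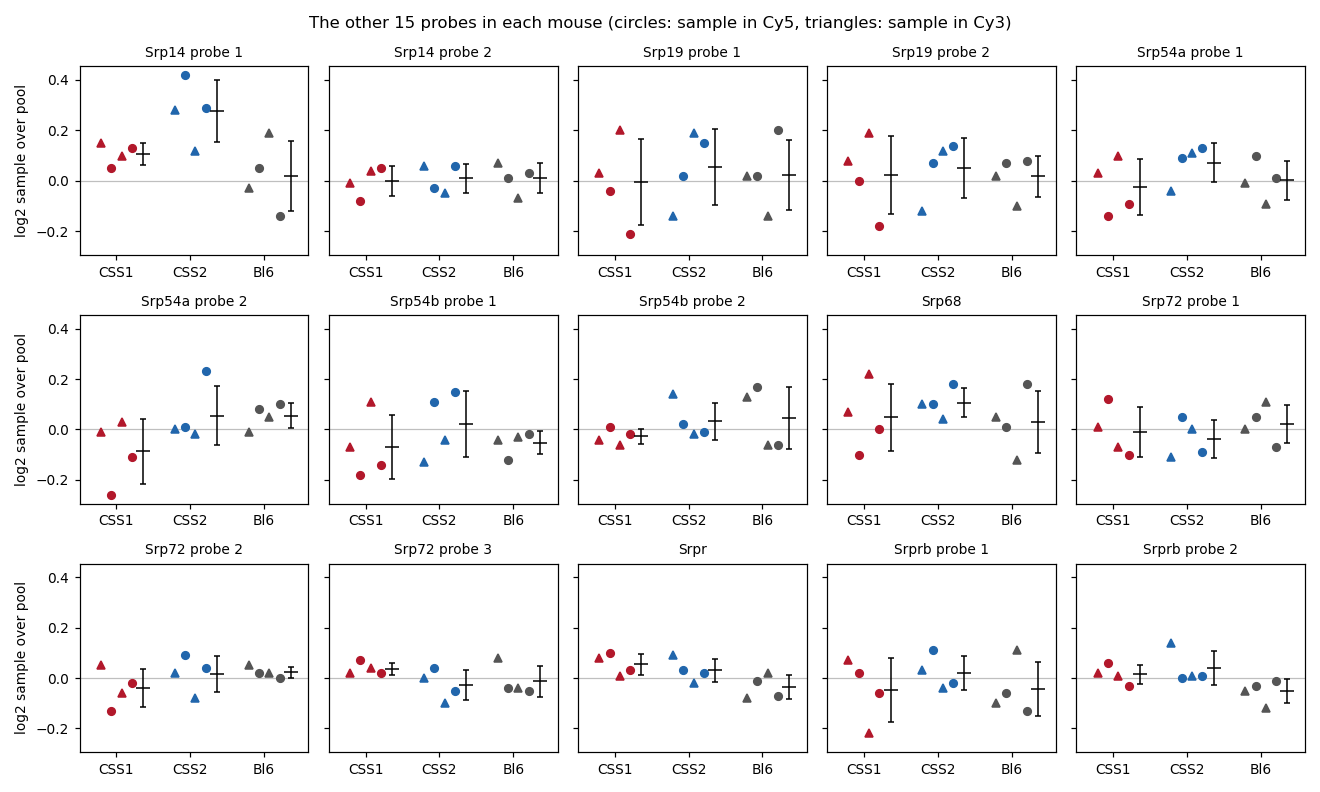
Log2 ratio over the Bl6 pool, dye effect removed (y axis), of the 15 probes other than those of Srp9 in each mouse, by strain (x axis), with circles for mice in Cy5, triangles for mice in Cy3, and bars for the mean and SD (n = 4 a strain). Srp14 probe 1 lies at 0.12 to 0.42 in CSS2 mice, and the strains overlap at the S domain genes.

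The receptor gave no call, and its largest differences from Bl6 were 0.09. Srpr, the subunit that meets Srp54, gave 0.08, 0.10, 0.01 and 0.03 in CSS1 mice 3, 6, 9 and 12, against 0.09, 0.03, -0.02 and 0.02 in CSS2 mice and -0.08, -0.01, 0.02 and -0.07 in Bl6 mice. CSS1 mice 3, 6 and 12 lay above every Bl6 mouse, and CSS1 mouse 9 lay just under Bl6 mouse 8. CSS1 minus Bl6 was 0.09 ± 0.04 (SE; 95% interval 0.01 to 0.17; unadjusted p = 0.0353, limma adjusted p = 0.383). CSS2 minus Bl6 was 0.07 (95% interval -0.02 to 0.15; limma adjusted p = 0.677).

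Srprb, the membrane anchor, had no overlap between CSS2 and Bl6 at probe 2. The CSS2 mice 1, 4, 7 and 10 stood at 0.14, 0.00, 0.01 and 0.01, against -0.05, -0.03, -0.12 and -0.01 in Bl6 mice 2, 5, 8 and 11. The gap was small, and CSS2 mouse 1, whose array had the lowest share of gene probes above background, stood apart from the other CSS2 mice. CSS2 minus Bl6 was 0.09 ± 0.04 (SE; 95% interval 0.00 to 0.18; limma adjusted p = 0.528). It was the only one of the 17 probes without overlap in that comparison, where 6.76% of all kept probes showed none. In CSS1 against Bl6 the 1 member probe without overlap was Srp9 probe 2, where the share of all probes was 7.68%, and in CSS1 against CSS2 it was again Srp9 probe 2, where the share was 5.97%. Srprb probe 1 differed from Bl6 by 0.00 in CSS1 (95% interval -0.16 to 0.15) and 0.06 in CSS2 (95% interval -0.09 to 0.22).

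The genes that act beside and after the particle were taken from lists of 5 groups. Of the translocon, which takes over the ribosome from the receptor, 13 of 13 genes were measured at their brightest probe, and 0 were called in any of the 3 comparisons. At this level 2.03% of all genes were called in CSS1 against Bl6, 1.04% in CSS2 against Bl6 and 0.97% in CSS1 against CSS2. The median translocon difference was -0.04 in CSS1 against Bl6, with a range of -0.27 to 0.09, and 0.00 in CSS2 against Bl6, with a range of -0.11 to 0.12. Sec61b, a small subunit of the channel, had the smallest p in CSS1 against Bl6, with a difference of -0.19 ± 0.06 (SE; limma adjusted p = 0.133). Without CSS2 mouse 4, whose array enters the shared estimate of the spread, 1 translocon gene was called, Sec61b at -0.19 (limma adjusted p = 0.0429). Sec61a1, the pore-forming subunit, had the smallest p in CSS1 against CSS2, with a difference of -0.23 (limma adjusted p = 0.525).

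The signal peptidase, which cuts off the signal sequence, had 6 of 6 genes measured and 0 called, with medians of -0.02 in CSS1 against Bl6 and 0.02 in CSS2 against Bl6. The oligosaccharyltransferase, which adds N-glycans to the entering chain, had 12 of 12 measured and 0 called, with medians of -0.05 in CSS1 against Bl6 and -0.02 in CSS2 against Bl6. Stt3a, a catalytic subunit of it, differed by -0.17 ± 0.05 in CSS1 against Bl6 (SE; limma adjusted p = 0.164). The routes into the membrane that bypass the particle had 17 of 18 genes measured and 0 called, with a median of 0.04 in CSS1 against Bl6 and 0.04 in CSS2 against Bl6. Emc8, a subunit of the membrane insertase EMC, differed by 0.11 in CSS2 against Bl6 (limma adjusted p = 0.559). Of the nascent chain binding list, proteins that meet the chain at the ribosome, 3 of 4 genes were measured and 0 were called.

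**Figure D5:**
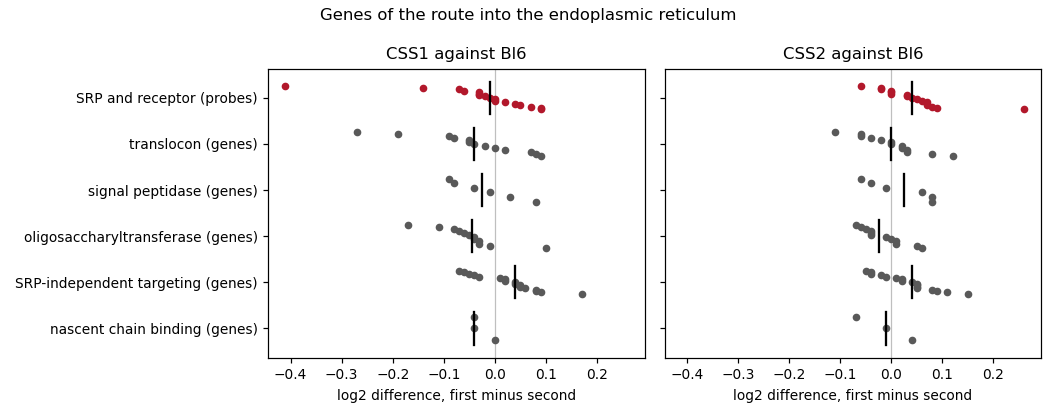
Log2 difference from Bl6 (x axis) of the 17 probes of the particle and its receptor and of each measured gene of the 5 lists (y axis), for CSS1 and for CSS2. Points are probes or genes and bars are medians, which lie between -0.05 and 0.04 for the 5 lists in both strains.

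Markers of brain cell types differed between the strains beside these results. In bulk RNA, fewer cells of a type and less RNA per cell cannot be told apart. Of the list of myelinating oligodendrocytes, the cells that wrap axons, 11 of 12 genes were measured and 8 were called higher in CSS1 than in Bl6, where 1.17% of all genes were called higher, with a list median per mouse of 0.58 to 0.88 in CSS1 and -0.28 to 0.22 in Bl6. In CSS2, 7 of the 11 were called higher than in Bl6, where 0.661% of all genes were, with 0.62 to 0.86 per mouse. The median gene difference of this list from Bl6 was 0.71 in CSS1 and 0.72 in CSS2. Of the 4 genes of dividing cells, 4 were called lower in CSS1 than in Bl6, where 0.859% of all genes were, at -0.40 to -0.31 per mouse in CSS1 and -0.08 to 0.08 in Bl6, and 0 in CSS2. Astrocyte genes were called higher for 3 of 8 in CSS1 and 1 of 8 in CSS2. The endothelium list gave 2 of 5 higher in CSS1 than in Bl6 and 0 in CSS2, and the microglia list 1 of 6 and 0. Their part in the member values was not tested.

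For the tissue, 9 of 9 hippocampal neuron genes were above background on all 12 arrays, and 0 were called, with list medians of 0.00 in CSS1 against Bl6 and 0.00 in CSS2 against Bl6. The markers of the cerebellum and the choroid plexus were above background on all 12 arrays too, so that detection alone does not tell the region. The cerebellar list had a median per mouse of 0.23 to 0.99 in CSS2, against -0.34 to 0.27 in Bl6, and a median gene difference of 0.59, with 0 of 4 genes called. In CSS1 its median difference from Bl6 was 0.06. The cerebellar list stood higher on average in CSS2 than in Bl6, and so did 12 of the 17 member probes. The values of the list and of the members were not compared mouse by mouse. Whether the cerebellar values had a part in any member result was not tested. Meningeal genes lay at a list median of -0.13 in CSS1 against Bl6 and -0.19 in CSS2 against Bl6, with 0 of 6 called.

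Across the 12 mice the genes whose values ran most like Srp9 probe 1 were Gstk1 (Pearson r = 0.929), Ap5m1 (0.921), St7l (0.908), Ackr3 (0.899) and Vps37a (0.896), out of 19225 genes searched at their brightest probe. Those that ran most against it were Colgalt1 (r = -0.929), Myoz3 (-0.892) and Rab38 (-0.87). Myoz3 and Rab38 hardly varied, with SDs over the 12 mice of 0.03 and 0.02, and that of Colgalt1 was 0.06. Repeated quality spots within an array had a median SD of 0.0303. These correlations are descriptions over 12 mice of 3 strains, and the arrays share the Bl6 pool. Over the 17 member probes, CSS2 mouse 7 was the lowest of its strain at 9 and the highest at 1. CSS1 mouse 9 was the highest of its strain at 7 probes and the lowest at 3, CSS2 mouse 10 was the highest at 7 and the lowest at 0, and Bl6 mouse 8 was the lowest at 8.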

How the data were processed

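Total RNA of individual mice was amplified and labelled by robot, per the labels' protocols, and hybridised with the Bl6 pool on 2-colour arrays of 45220 spots. The deposited scanner files hold a spot and background intensity per dye, per the file headers, and the series' value table holds log2 ratios deposited by the authors. The image software was not given in the sources used here. Turned scanner ratios correlated with that table at 0.493 to 0.824 on the 12 arrays, so that its direction is sample over pool. Its column medians ran from -0.00502 to 0.00585. Its dye effect had an SD over probes of 0.00548, against 0.223 in the scanner ratios, so its dye bias had been removed before deposit, by a method that stays unknown here, as does its centring.

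From the scanner files, limma 3.58.1 in R 4.3.3 gave normexp background correction with an offset of 50, loess within each array with 2200 control and 3591 quality spots at weight 0, and ratios turned to sample over pool. Spots were not averaged, and each gene spot was fitted on its own. Probes under a mean log2 intensity of 6.23, the 95th percentile of 1580 spots whose values place them at background, were left out (190), leaving 39239. Strain and dye were fitted on all 12 arrays, with 8 residual degrees of freedom, and eBayes p-values were adjusted over all kept probes. Intervals are 95%. Lists were read at the brightest probe of each gene. The fit was tested on simulated data. The genes named are the members, the list gene with the smallest p in a comparison, and the genes most and least like Srp9 by Pearson r over 12 mice. The members, lists and comparisons were chosen with earlier results of these data known. Symbols were updated through the RefSeq table of GRCm38.p6: 28427 kept probes had a current symbol and 3816 an older one, 63 kept the annotation's own, and 6933 were left unnamed. Alternatives were normexp without offset, no background correction, scale normalization, median centring, the deposited values, the sample channel alone, other filters, other fits, array weights, a block of consecutive mouse numbers and leaving out each mouse.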

Additional observations from a re-analysis of the deposited data

Results flagged for a closer look

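Of 51 groups of 4 mice checked over the member probes, 3 held a mouse far from the others, and chance gives about 1 in 20. Srp54a probe 2 stood at 0.23 in CSS2 mouse 10, against -0.02 to 0.01 in the other CSS2 mice. Srprb probe 2 stood at 0.14 in CSS2 mouse 1, against 0.00 to 0.01 in the other CSS2 mice. Srp72 probe 3 stood at 0.08 in Bl6 mouse 2, against -0.05 to -0.04 in the other Bl6 mice.

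The difference of Srp9 probe 2 from Bl6 differed between the strains, with CSS1 minus CSS2 at -0.45 (limma adjusted p = 0.000474). It was lower in 4 of 4 CSS1 mice than in any CSS2 mouse.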

How the results depend on the processing

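Member probes called in CSS1 against Bl6 numbered 0 with median centring, where Srp9 probe 2 gave -0.39 (limma adjusted p = 0.0666). Under the other 11 of 12 alternatives Srp9 probe 2 kept its call, with the values of all 12 from -0.43 to -0.35, and leaving out each mouse gave -0.44 to -0.36 (limma adjusted p from 0.0025 to 0.00984). In CSS1 against CSS2 it was called under 12 of 12, from -0.49 to -0.40, and without each mouse from -0.47 to -0.41. With the sample channel only, member probes called numbered 1 in CSS2 against Bl6, Srp14 probe 1 at 0.23, and 3 in CSS1 against CSS2, namely Srp9 probe 2, Srp54a probe 2 at -0.20 and Srp72 probe 2 at -0.30. Srp14 probe 1 ran from 0.17 to 0.31 in CSS2 against Bl6 over the 12 alternatives, and without each mouse from 0.20 to 0.33 (limma adjusted p from 0.0668 to 0.448). Srp9 probe 1 in CSS1 against CSS2 was -0.09 within Cy5 and 0.09 within Cy3. The mean of both Srp9 probes, added after seeing the data, gave -0.23 there (limma adjusted p = 0.0428). The 49 member results that were not called came to a call in 4 of 1170 refits. The mean of both Srp9 probes, counted there under probe 1, gave 1 of these calls, and it contains the called probe 2. The other calls came with the sample channel only. Of the 1170 refits, 84 had the other sign while uncalled. The cause of these changes was not tested.

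Counts over all probes moved more. In CSS1 against Bl6, all probes called numbered 680, against 1559 with array weights, 355 with only the strains compared, 177 with median centring and 219 without the dye term, and 247 to 816 without each mouse. In CSS2 against Bl6 the 355 became 149 without the dye term, 179 with median centring, 545 with a block of consecutive mouse numbers, 595 with array weights and 3013 with the sample channel only, and 169 to 357 without each mouse. In CSS1 against CSS2 the 360 became 3825 with the sample channel only, 236 with only the strains compared, 163 with median centring and 211 without the dye term, and 237 to 369 without each mouse. Among the oligosaccharyltransferase genes, Stt3a was called in CSS1 against CSS2 with the sample channel only, at -0.22 (limma adjusted p = 0.038). The strains share no mouse numbers and no label pairs the mice. The block of consecutive numbers, each holding a mouse of every strain in the same dye, changed no member call. A block for the slide was not run, since the headers give no slide. The number of arrays limits which differences can be detected. Srp14 probe 2, Srp54b probe 2, Srp72 probe 3 and Srprb probe 2 are dim, so that their ratios are compressed by the offset. With the offset at 0, Srprb probe 2 gave 0.13 in CSS2 against Bl6 (limma adjusted p = 0.517), against 0.09 as reported.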

Other observations

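Values of Srp9 probe 2 over the 12 mice ran most like those of Xrcc5 (Pearson r = 0.973), Plin5 (0.964), Vmn2r111 (0.961), Acadl (0.958) and Chst10 (0.957), a comparison added after the values of Srp9 were seen. Xrcc5, Acadl and Chst10 lie on chromosome 1, as Srp9 does, and Plin5 and Vmn2r111 on chromosome 17. The 12 mice fall into CSS1 and the other strains at this probe, so that any gene that separates CSS1 from the others ranks high.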
